A study of Mus musculus with 7 samples.

Results

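The genes described here encode the proteins of the cytosolic ribosome. They were taken from the deposited count tables by symbol, as Rpl or Rps followed by a number (with the endings a, x, y or l), the stalk genes Rplp0, Rplp1 and Rplp2, and Rpsa. This gave 82 of the 32531 gene symbols, 50 for the large subunit and 32 for the small subunit. The symbol rule does not take Rps3a1, Fau or Gnb2l1, whose products are also ribosomal proteins, and these are given as companions.

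The libraries came from midbrain of adult mice of the Stard8-TRAP ES2342 line, in which the large-subunit protein Rpl10a carries an EGFP tag and Stard8 names the driver of the transgene. All mice were untreated controls and carried the transgene, so both groups hold it. The IP group (3 libraries, replicates 1, 2 and 4) is RNA on ribosomes pulled down through the tag with antibodies to EGFP. The unbound group (4 libraries, replicates 1 to 4) is RNA that stayed in the homogenate after the pull-down. Nothing in the labels says whether the replicates came from separate animals, and the p-values measure the spread between these libraries only.

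A ribosome joins 1 small subunit, which reads the mRNA, to 1 large subunit, which makes the peptide bond, and nearly every ribosomal protein is present once in it. Most ribosomal protein mRNAs of mammals start with a C followed by a run of pyrimidines at the cap, the 5′ terminal oligopyrimidine (TOP) motif, and their translation is switched as a group by the kinase mTOR, with the RNA-binding protein LARP1 holding them back when mTOR is inactive. A TOP mRNA can therefore sit on ribosomes or off them while its amount stays the same. In neurons ribosomal protein mRNAs are also found in axons and dendrites.

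The start of the mRNA is what sets this family apart in sequence, so a few starts are shown. RefSeq promoter entries (GRCm38.p6) matched 61 of the 82 genes. Within 10 bases of the annotated start, a C followed by at least 4 more pyrimidines (read on the transcribed strand) stood in 62.3% of the 61 genes, against 34.4% of 27025 genes in the same table. Exactly at the annotated start it stood in 21.3% and 3.01%. In the sequences here, 30 bases each from 15 before the start, the capitals mark that run. The first 4 have a C of the run at the annotated start itself. The last 2 belong to the only gene that edgeR's quasi-likelihood test called higher in IP with all libraries and to the tagged gene. In these 2 the run lies wholly before the annotated start, so it is not part of the annotated mRNA. The RefSeq table gives each of these 2 genes a second start, not shown, without such a run.
Rps15a (chr7:118116133-118116162, minus strand): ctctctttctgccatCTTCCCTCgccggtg
Rps27 (chr3:90213634-90213663, minus strand): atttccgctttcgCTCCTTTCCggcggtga
Rpl38 (chr11:114668565-114668594, plus strand): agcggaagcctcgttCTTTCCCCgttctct
Rplp2 (chr7:141447636-141447665, plus strand): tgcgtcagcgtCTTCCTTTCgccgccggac
Rps27l (chr9:66946071-66946100, plus strand): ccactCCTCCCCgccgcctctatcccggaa
Rpl10a (chr17:28328456-28328485, plus strand): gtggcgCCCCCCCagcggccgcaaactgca

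Other motifs were searched on both strands of the 300 bases of each entry. CCGGAAG, the core site of ETS factors, was in 41.0% of the 61 ribosomal protein genes and in 9.93% of all genes. CCATNTT, the core of a YY1 site, was in 31.1% and 18.2%, GGGGCGG, an Sp1 box, in 23.0% and 25.5%, and TATAAA in 9.84% and 15.7%. These are matches of letters, not binding sites.

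The libraries held 52052340 to 70861941 counts in genes in the IP group and 53715780 to 76114634 in the unbound group. At these depths 3 counts correspond to 0.0376 to 0.059 CPM, where CPM are counts scaled to the library's counts in genes times its TMM factor. Stard8 had 388, 440 and 227 CPM in IP 1, 2 and 4, against 3.51, 4.35, 4.18 and 4.89 CPM in unbound 1 to 4. The series is described by its submitters as neuronal, but all 5 endothelial, all 5 pericyte and all 5 microglia markers were called higher in IP. All 5 pan-neuronal and all 5 oligodendrocyte markers were called lower. Of 5 astrocyte markers 4 were higher and 0 lower, and of 5 dopaminergic markers 0 were higher and 1 lower. Among all tested genes, 20.5% were called higher and 18.9% lower. The summed level of the endothelial markers was 684 to 762 CPM in IP and 5.05 to 8.84 CPM in unbound, that of the pericyte markers 2323 to 3762 and 11.4 to 17.9 CPM (Higd1b was at 0 counts in unbound 1), and that of the neuronal markers 2940, 3159 and 6616 CPM in IP 1, 2 and 4 and 11120 to 17740 CPM in unbound. The part of these markers' cells in the levels given here was not tested. In such bulk RNA, fewer cells of a type and less RNA per cell cannot be told apart. Each lane held libraries of 1 group only, so lane and group cannot be told apart either.

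Ribosomal protein genes took 1.68%, 1.38% and 1.23% of the counts in genes in IP 1, 2 and 4, against 1.02%, 2.33%, 0.893% and 0.944% in unbound 1 to 4. In the plot of these shares the IP libraries lay above unbound 1, 3 and 4, unbound 2 lay above every IP library, and both subunits did the same. The share averaged 1.43% ± 0.229 in IP (SD, n = 3) and 1.30% ± 0.689 in unbound (SD, n = 4), so the group difference was smaller than the spread between unbound libraries. Without unbound 2 the unbound mean was 0.953% ± 0.0656 (SD, n = 3). Large-subunit genes made up 0.918% ± 0.131 in IP and 0.839% ± 0.435 in unbound, and small-subunit genes 0.509% ± 0.098 and 0.458% ± 0.254.

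**Figure D1:**
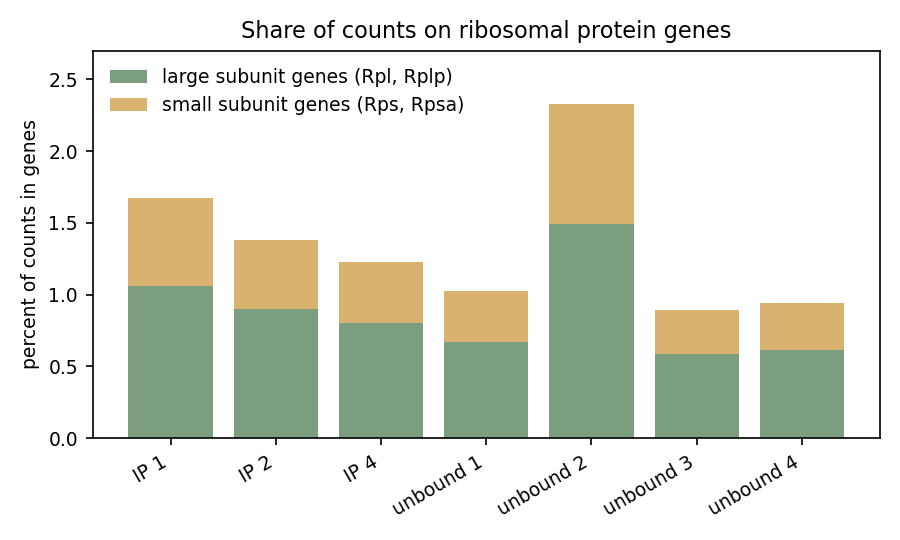
Percent of the counts in genes that fell on ribosomal protein genes in each library (IP left, unbound right), split into large-subunit (lower part of the bar) and small-subunit genes (upper part). Unbound 2 reached 2.33%, the IP libraries 1.23% to 1.68%, and the other unbound libraries 0.893% to 1.02%.

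The spread among the unbound libraries comes first, since unbound 2 decides the comparison. It was above the other 3 unbound libraries in 76 of the 79 ribosomal protein genes tested, against 33.2% of all tested genes, and above all 6 other libraries in 67, against 3912 of the 17654 tested genes. Its level relative to the mean of the other unbound libraries was a median of 1.52 on the log2 scale over the family, from 0.18 in Rps15a to 3.27 in Rps14 among the 76 genes at 5 CPM or more that have a transcript length, and 0.005 over all tested genes. The median SD of log2 CPM among the 4 unbound libraries was 0.84 for ribosomal protein genes and 0.49 for all genes. Without unbound 2 these medians were 0.27 and 0.35, and among the 3 IP libraries they were 0.26 and 0.32.

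Unbound 2 was also high in other short transcripts. Over 14747 genes with a GENCODE M21 transcript length, its deviation from the other unbound libraries had a Spearman correlation of -0.56 with length (a description: genes of 1 library share its depth and preparation). Genes outside the family up to 600 bases long deviated by a median of 1.20, those above that and up to 1000 bases by 1.15, those in the next class up to 1500 by 0.81, and those over 4000 by -0.54. Ribosomal protein genes, with a median transcript length of 680 bases, deviated by 1.63, 1.57 and 1.43 in the first 3 of these classes, which is above the other genes of the same length in each. Over the 76 family members the correlation with length was -0.24.

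**Figure D2:**
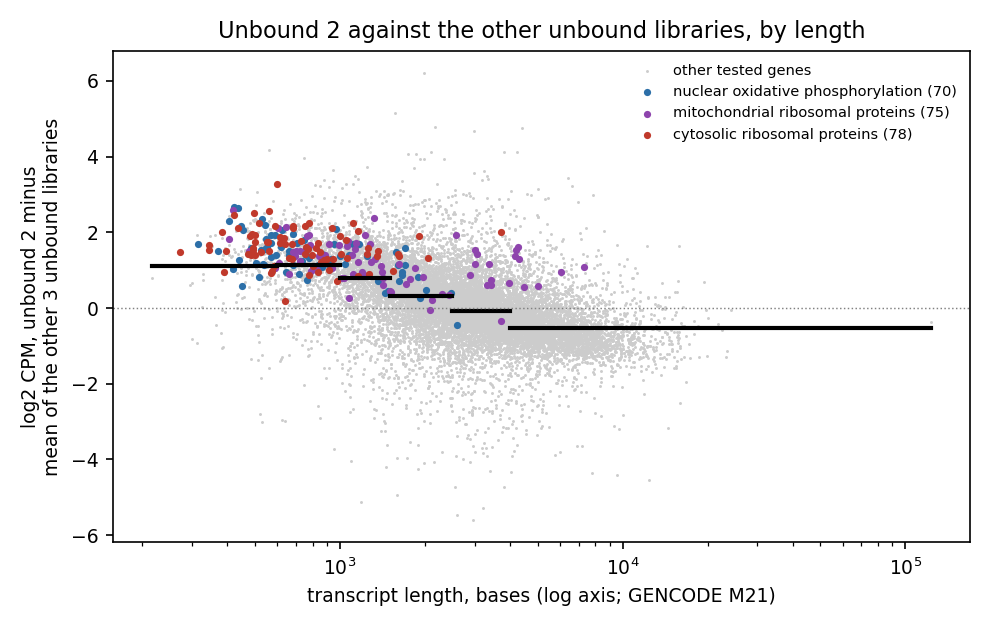
Level in unbound 2 minus the mean of unbound 1, 3 and 4 (log2 CPM, y axis) against transcript length in bases (log axis) for each gene with a length; black bars are medians of the other tested genes by length class, and coloured points are 3 gene families. The cytosolic ribosomal protein genes lie at the short end and above 0, beside mitochondrial ribosomal protein and oxidative phosphorylation genes.

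The same library was set against related families. Nuclear genes of oxidative phosphorylation, which are also short (median 709 bases), deviated in unbound 2 by a median of 1.38, and mitochondrial ribosomal protein genes (median 1280 bases) by 1.17. The 20 elongation factor and other TOP genes (median 1794 bases) deviated by 0.83. Ribosome assembly factors (median 2172 bases) deviated by 0.08, and genes of mTOR and S6 kinase control (median 5425 bases) by -0.63. Reads placed at more than 1 site, which the counts leave out, made up 34.6% of the reads in unbound 2 and 17.6% to 24.5% in unbound 1, 3 and 4. Markers of red blood cells summed to 64.2 CPM in unbound 2 and 12.9 to 17.6 CPM in the other unbound libraries, and the microglia sum was 56.6 CPM in unbound 2 and 30.1 to 55.1 in the others. Its astrocyte (188 CPM, against 223 to 255), pericyte (11.4, against 13.4 to 17.9) and dopaminergic sums (197, against 201 to 256) lay below the others, and its neuronal, oligodendrocyte and endothelial sums lay within their range. The part of any of these in the excess was not tested.

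**Figure D3:**
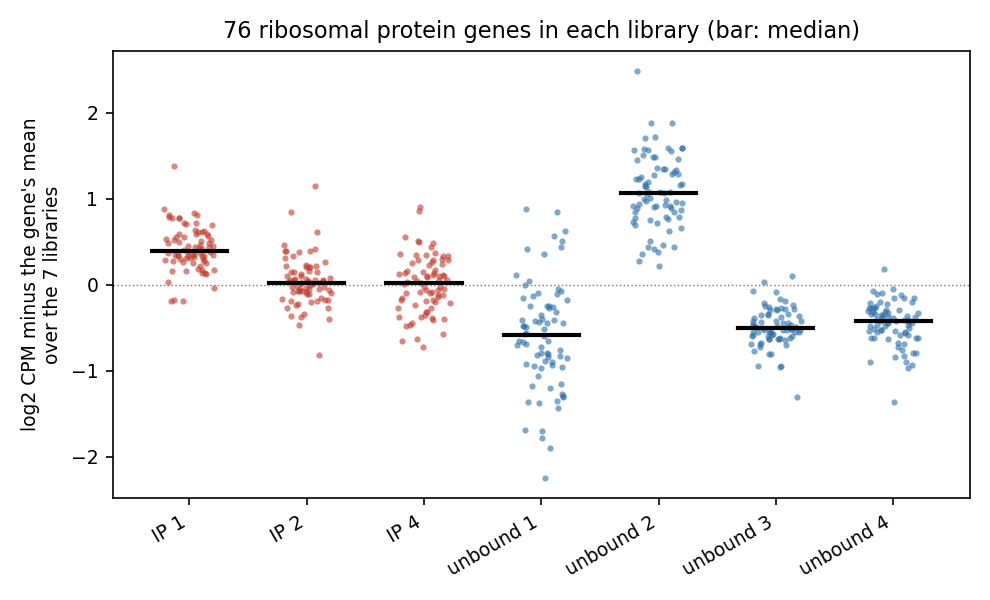
Each point is 1 of 76 ribosomal protein genes, as log2 CPM minus the mean of that gene over the 7 libraries; black bars are medians. Unbound 2 stands above all other libraries, and the points of unbound 1 are spread most widely.

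Unbound 1 stood apart in another way: its level of the family was not high, but its ranking of the genes differed. Over 76 ribosomal protein genes, log2 CPM in unbound 1 correlated with each of the other 6 libraries at r = 0.73 to 0.83, whereas unbound 3 and 4 correlated at 0.981 and the IP libraries with each other at 0.966 to 0.976 (a description over genes that share a library). Its deviation from the other unbound libraries had an SD of 0.70 over the family, against 0.53 over 4401 other genes at 50 CPM or more. It ran from -2.23 in Rpl10a to 1.02 in Rpl13, a large-subunit protein, and was above 0 in 10 of 76 genes. The deviations of unbound 3 and 4 were above 0 in 4 and 7 genes. For each of these libraries the mean of the others includes unbound 2. Rpl13 had 263, 213 and 223 CPM in IP 1, 2 and 4, against 476, 442, 167 and 176 CPM in unbound 1 to 4, and Rps27, a zinc-finger protein of the small subunit, showed the same split. In both genes unbound 1 and 2 lay above all IP libraries and unbound 3 and 4 below them. The deviation of unbound 1 had rank correlations of 0.13 with transcript length and 0.02 with GC content over the family, and medians of -0.65 in the 29 genes that hold a snoRNA gene and -0.56 in the 47 that do not.

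The comparison of IP with unbound asks which mRNAs are enriched on ribosomes of the tagged cells. With all 7 libraries, edgeR's quasi-likelihood test called 1 of the 79 ribosomal protein genes higher in IP (Benjamini-Hochberg adjusted p under 0.05 over 17654 genes), where 20.5% of all tested genes were called higher, and 0 lower, where 18.9% of all genes were called. At an unadjusted p under 0.05, 4 were higher and 1 lower, against 4203 and 4322 of the 17654 tested genes. DESeq2 called 3 higher (all genes, 22.3%) and 1 lower (all genes, 22.6%), and limma voom 4 (all genes, 22.7%) and 0 (all genes, 19.3%). The median log2 fold change was 0.06 over the family and -0.10 over all genes. The 3 untested genes were Rpl10l, a retrogene active in testis, with 1 count in all, Rpl3l, a muscle form of Rpl3, with 1 to 40 counts per library, and Rpl26, a protein at the tunnel exit, with 0 to 6 counts per library. The low count of Rpl26 need not mean that its mRNA was absent, and its cause was not tested.

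Without unbound 2, 42 of 78 ribosomal protein genes were called higher in IP (all genes, 23.3%) and 0 lower (all genes, 20.9%). Unbound 2 was above the other unbound libraries in 76 of 79 of these genes, so leaving it out raises their fold changes by construction. The calls without it, here and below, describe the dependence on that library and are no independent evidence of enrichment. The median log2 fold change was 0.69, against -0.02 over all genes. At an unadjusted p under 0.05, 50 were higher and 1 lower, against 4627 and 4373 of all genes tested in both fits. Every IP library lay above unbound 1, 3 and 4 in 51 genes (all genes, 29.4%) and below them in 1 (all genes, 28.2%). With unbound 2 included, the groups did not overlap in 2 genes, Rps27l above (all genes, 25.1%) and Rps15a below (all genes, 22.7%). The number called higher was 38 of 78 when unbound 1 was left out as well (all genes, 23.4%), of which 34 were among the 42. Within libraries that carry the index GTGAAA (1 IP, 2 unbound, none of them unbound 1 or 2) it was 28 of 79 (all genes, 21.4%) with a median of 0.50, and within ACAGTG (2 IP, with unbound 1 and 2) it was 0 of 79 (all genes, 12.4%) with a median of -0.29, against the pooled 1 and 0.06. When each library was offset for transcript length it was 13 of 78 with all libraries (all genes, 25.4%) and 20 of 77 without unbound 2 (all genes, 25.5%). With that offset the family's share of calls was thus below the share of all genes with all libraries, and near it without unbound 2, unlike the 42 of 78 without the offset. The median log2 fold change without unbound 2 was 0.32 with the offset, against 0.02 over all genes.

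**Figure D4:**
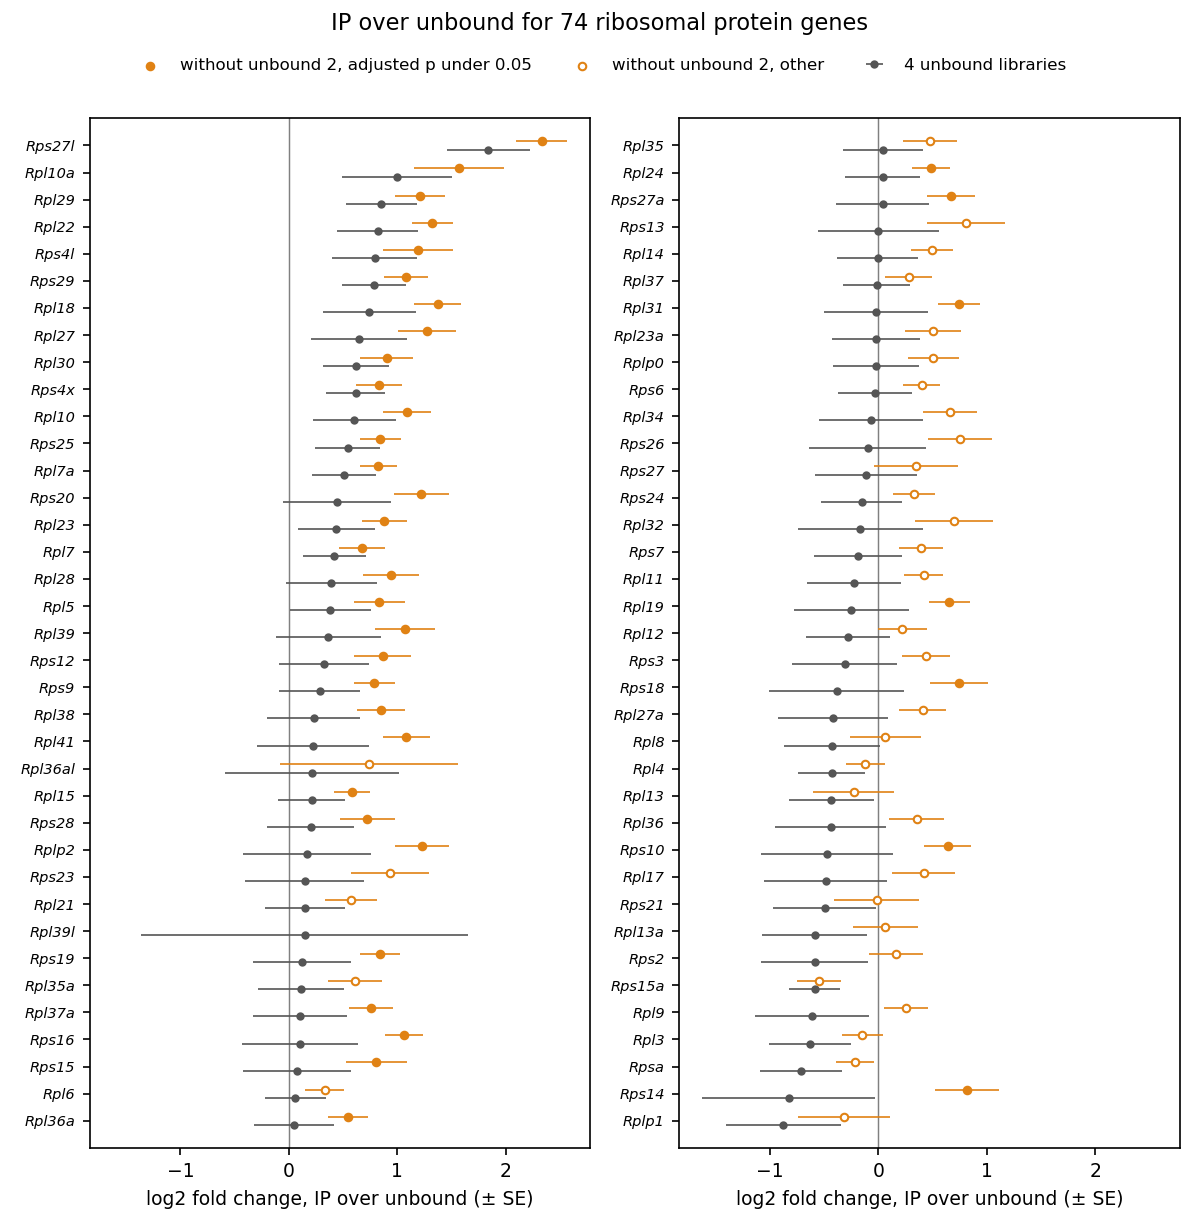
Log2 fold change of IP over unbound (± SE) for 74 of the 79 tested ribosomal protein genes, highest at upper left and lowest at lower right; grey uses all 4 unbound libraries and orange leaves out unbound 2 (filled where the adjusted p is under 0.05; Rpl39l has no orange point). With all libraries the family centres near 0 and Rps27l stands highest, and without unbound 2 most genes move to the right, Rps14 furthest of the genes at 5 CPM or more.

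Rps27l, the gene edgeR called with all libraries, is a paralogue of Rps27 and in mouse and human a target of p53. It lies on chromosome 9 from 66946086 to 66949516 (GRCm38, plus strand, protein coding). Rps27l had 48.9, 41.7 and 34.0 CPM in IP 1, 2 and 4, against 9.86, 21.7, 7.57 and 7.29 CPM in unbound 1 to 4. All IP libraries were above all unbound libraries, and unbound 2 was the nearest to them. Its log2 fold change was 1.84 ± 0.38 (adjusted p = 0.00361) and 2.33 ± 0.24 without unbound 2. Within index ACAGTG alone it was 1.52 and did not pass (edgeR adjusted p = 0.061).

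Rps27, the parent gene (chromosome 3, 90212522 to 90213651, minus strand), had 382, 278 and 302 CPM in IP 1, 2 and 4, against 442, 633, 155 and 156 CPM in unbound 1 to 4. The groups overlapped. Its log2 fold change was -0.11 ± 0.47 (edgeR adjusted p = 0.87), and 1.04 (adjusted p = 0.00346) when both unbound 1 and 2 were left out. Rps27l counts were 12.8%, 15% and 11.3% of Rps27 counts in IP 1, 2 and 4, against 2.23%, 3.44%, 4.89% and 4.66% in unbound 1 to 4. The ratio did not overlap between groups and was 1.83 higher in IP on the log2 scale, in 3 of 3 IP libraries. A 2-sided exact permutation test over the 35 splits gave p = 0.0286, the smallest it can give, and 0.143 after Benjamini-Hochberg adjustment over 5 paralogue ratios.

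Of the other 4 ratios, 3 overlapped between the groups. Rps4l, which GENCODE lists as a transcribed processed pseudogene, stood at 7.77%, 7.02% and 7.28% of Rps4x in IP 1, 2 and 4, against 3.80%, 8.02%, 8.82% and 5.15% in unbound 1 to 4. Rpl22l1, a paralogue that can replace Rpl22, stood at 15.9%, 13.7% and 17.5% of Rpl22 in IP, against 13.8%, 47.0%, 42.2% and 61.2% in unbound, where unbound 1 alone lay among the IP values. Rpl7l1, an Rpl7-like protein, stood at 24.2% to 27.9% of Rpl7 in IP and 16.9% to 23.9% in unbound, without overlap (2-sided exact permutation p = 0.0857). Rpl36al, a retrocopy of Rpl36a, stood under 1% of it in every library. Adjusted p for these 4 ratios lay between 0.19 and 0.514, and the reads of such near-identical copies may be split or dropped by the counting. Rpl39l, a paralogue of Rpl39 known from testis, had 0 to 0.747 CPM in IP and 0 to 0.464 CPM in unbound.

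Rpl10a, the protein of the L1 stalk that carries the tag (chromosome 17, 28328471 to 28331033, plus strand), had 282, 345 and 358 CPM in IP 1, 2 and 4, against 40.5, 326, 140 and 151 CPM in unbound 1 to 4. Unbound 2 lay within the IP values and unbound 1 was the lowest of all libraries. The log2 fold change was 0.999 ± 0.507 (edgeR adjusted p = 0.142), the second highest of the family, and 1.57 ± 0.41 (adjusted p = 0.0129) without unbound 2. Reads of the transgene and of the native gene fall on the same symbol and cannot be told apart here.

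**Figure D5:**
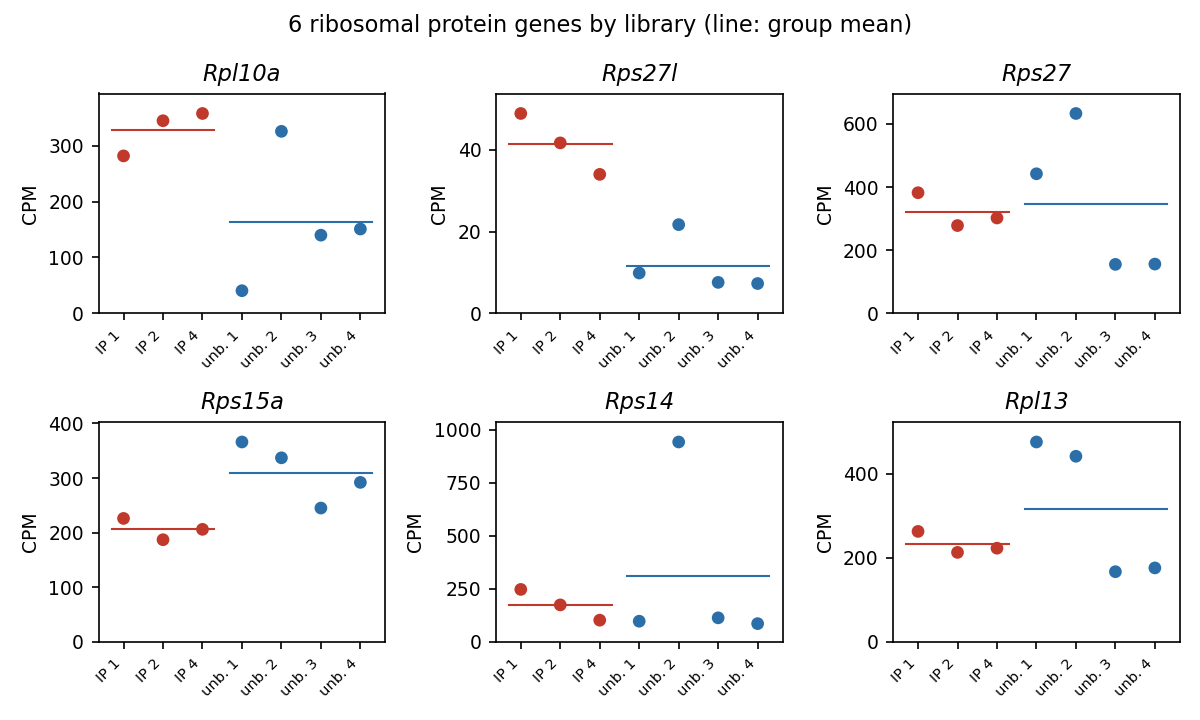
CPM of 6 ribosomal protein genes in each library (red IP, left; blue unbound, shortened to unb., right; lines are group means; y axes start at 0 and differ between panels). Rps27l separates the groups upward and Rps15a downward, unbound 2 is the highest library for Rps27 and Rps14, and unbound 1 is the lowest for Rpl10a and the highest for Rpl13.

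Rps15a, a protein of the small-subunit body, was the only gene with all IP libraries below all unbound libraries. It lies on chromosome 7 from 118104372 to 118116188 (minus strand). It had 226, 187 and 206 CPM in IP 1, 2 and 4, against 366, 337, 245 and 292 CPM in unbound 1 to 4. It also had the smallest SD among unbound libraries of the family, 0.25 in log2 CPM, and the smallest excess in unbound 2. Its log2 fold change was -0.59 ± 0.23 (edgeR adjusted p = 0.0666), -0.55 ± 0.20 (adjusted p = 0.0507) without unbound 2, and past the threshold with DESeq2 (adjusted p = 0.0336).

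Of the other genes at the core of the large subunit, Rpl3, Rpl4 and Rpl10 lie at or near the peptidyl transferase centre. Rpl4, the family's most abundant gene by counts, had 775, 774 and 726 CPM in IP, against 902, 1620, 822 and 747 CPM in unbound 1 to 4. Rpl3 had 321, 255 and 240 CPM in IP, against 272, 782, 336 and 294 CPM in unbound. Neither was called with or without unbound 2 (log2 fold changes -0.43 and -0.63 with it, -0.12 and -0.15 without). Rpl10, in yeast among the last proteins to join the large subunit, had 458, 465 and 521 CPM in IP, against 170, 587, 219 and 288 CPM in unbound, and its log2 fold change was 0.60 ± 0.38 (edgeR adjusted p = 0.231), and 1.09 ± 0.22 (adjusted p = 0.00388) without unbound 2.

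The stalk that recruits elongation factors is built on Rplp0 from pairs of Rplp1 and Rplp2. Rplp1 had 227, 118 and 168 CPM in IP, against 378, 616, 151 and 112 CPM in unbound 1 to 4. Rplp2 had 293, 189 and 219 CPM in IP, against 73.1, 532, 122 and 103 CPM in unbound 1 to 4. Unbound 1 was thus above all IP libraries for Rplp1 and below them for Rplp2, and unbound 2 was the highest for both. Log2 fold changes were -0.87 ± 0.53 for Rplp1 and 0.17 ± 0.59 for Rplp2 (edgeR adjusted p = 0.214 and 0.844), and -0.32 ± 0.42 and 1.23 ± 0.25 without unbound 2 (adjusted p = 0.573 and 0.00346). Rplp0 had 108, 80.1 and 70.1 CPM in IP and 74.3, 169, 59.7 and 47.5 CPM in unbound, a log2 fold change of -0.02 ± 0.40.

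Among the remaining large-subunit genes, 16 of 29 were called higher without unbound 2 (all genes, 23.3%). With the length offset as well, 8 of 29 were called (all genes, 25.5%), near the share of all genes. Rpl22, an RNA-binding protein that ribosomes can lack, had 219, 170 and 157 CPM in IP, against 76.2, 195, 72.3 and 69.2 CPM in unbound 1 to 4, so that unbound 2 alone overlapped with IP. Rpl29, also known as a heparin-binding protein, had 122, 76.9 and 94.1 CPM in IP, against 34.4, 89.9, 42.7 and 49.4 CPM in unbound. Their log2 fold changes were 0.82 ± 0.37 and 0.85 ± 0.33 (edgeR adjusted p = 0.104 and 0.0598), and 1.32 ± 0.19 and 1.21 ± 0.23 without unbound 2 (adjusted p = 0.000509 and 0.00253). Rpl29 was also called with all libraries by DESeq2 and limma voom. Rpl41, the shortest ribosomal protein, had 467, 314 and 393 CPM in IP, against 221, 789, 160 and 173 CPM in unbound, and Rpl9 had 347, 252 and 230 CPM in IP, against 225, 997, 224 and 245 CPM in unbound. Rpl41 was called without unbound 2 (1.08 ± 0.22, edgeR adjusted p = 0.00346), and Rpl9 was not (0.25 ± 0.20, adjusted p = 0.338). Of the proteins that bind 5S rRNA and, when free, the p53 regulator MDM2, Rpl5 was called without unbound 2 (0.83 ± 0.23, adjusted p = 0.0167) and Rpl11 was not (0.42 ± 0.18, adjusted p = 0.0869). At the tunnel exit, where the new chain leaves, 3 of 6 tested genes were called without unbound 2, Rpl19, Rpl31 and Rpl39 (all genes, 23.3%). With the length offset as well, 1 of the 6 was called (all genes, 25.5%).

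In the small subunit, the genes of the head and those of the body and platform gave different counts without unbound 2. This difference was not tested, and the groups were chosen after the values were seen. Of the 14 head genes 13 were called higher, with a median log2 fold change of 0.84, and of the 16 body and platform genes 4, with a median of 0.40, where 23.3% of all genes were called. The exception in the head was Rps3, which lines the mRNA entry channel, with 327, 245 and 196 CPM in IP, against 216, 705, 173 and 177 CPM in unbound 1 to 4 (0.44 ± 0.22, edgeR adjusted p = 0.141). Rps29, a zinc-binding protein of the head, had 243, 158 and 201 CPM in IP, against 85.8, 182, 95 and 103 CPM in unbound 1 to 4, where unbound 2 alone overlapped. Rps15, whose tail reaches the decoding site, had 358, 259 and 351 CPM in IP, against 111, 672, 214 and 227 CPM in unbound. Rps4x, Rps9 and Rps14 were among the called body and platform genes. Head genes also had the larger excess in unbound 2 (median 1.77, against 1.47 for body and platform). Their deviation in unbound 1 was lower (-0.80, against -0.47), but it is taken from a mean that includes unbound 2. Without unbound 1 and 2 the counts of genes called higher were 8 of 14 and 5 of 16 (all genes, 23.4%). Without unbound 2 and with the length offset they were 4 of 14 and 2 of 16 (all genes, 25.5%). The head share was then near that of all genes, and the body and platform share below it.

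Rps14, a platform protein at the mRNA exit that is haploinsufficient in the human 5q- syndrome, turned direction with 1 library. It had 247, 174 and 102 CPM in IP 1, 2 and 4, against 97.1, 942, 113 and 85.7 CPM in unbound 1 to 4. Unbound 2 was far above all other libraries, and IP 4 lay among the remaining unbound values. The log2 fold change was -0.83 ± 0.80 (edgeR adjusted p = 0.437), and 0.82 ± 0.30 (adjusted p = 0.0472) without unbound 2. Rpsa, the small-subunit protein also known as the laminin receptor, had 135, 117 and 119 CPM in IP, against 136, 382, 165 and 128 CPM in unbound, and was not called in either fit (-0.72 ± 0.38 and -0.21 ± 0.18).

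Per length, the median ribosomal protein gene stood at 247, 196 and 178 CPM per kilobase in IP 1, 2 and 4, against 115, 389, 139 and 142 in unbound 1 to 4. The family did not sit at 1 level: the SD of log2 CPM per kilobase over 76 genes was 0.99 to 1.09 in IP libraries and 1.07 to 1.28 in unbound libraries, highest in unbound 1. Rps27 had the highest level per kilobase in IP 1 and 2 (1110 and 805) and in unbound 1 and 2 (1280 and 1830), Rpl41 in IP 4 (899), and Rpl4 in unbound 3 and 4 (535 and 486). Both the SDs and these orders rest on 1 annotated transcript per gene. That of Rps20 has 3706 bases, and Rps20 was lowest per kilobase in every IP library and in unbound 1 and 4. Reads placed at several sites are missing from these levels.

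Fau, which encodes Rps30 behind a ubiquitin-like domain, had 125, 77.9 and 83.0 CPM in IP, against 61.0, 208, 59.5 and 56.5 CPM in unbound 1 to 4. For Fau, Gnb2l1 (the small-subunit scaffold RACK1) and Rps3a1, unbound 2 stood above the other unbound libraries by 0.81 to 1.83 on the log2 scale. Without unbound 2, Fau and Rps3a1 were called higher (0.69 and 0.79, edgeR adjusted p = 0.0262 and 0.0151), and Gnb2l1 was not (0.57, adjusted p = 0.0866). Rpl7l1 was called with all libraries (0.80 ± 0.24, adjusted p = 0.0231). Rpl22l1 and Rpl37rt, 2 more related symbols outside the rule, had log2 fold changes of 0.039 and 0.026 without unbound 2 and were not called.

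The lists of other genes of the pathway are set beside the same shares of all genes, 20.5% higher and 18.9% lower with all libraries and 23.3% and 20.9% without unbound 2. At an unadjusted edgeR p under 0.05, 4203 of 17654 genes were higher and 4322 lower with all libraries. Without unbound 2 these counts were 4627 and 4373. Of 20 elongation factor and other TOP genes, a list that holds Fau and Gnb2l1 as well, 1 was called higher with all libraries, Pabpc1, the poly(A)-binding protein (293 ± 31.7 CPM in IP and 123 ± 25.8 in unbound, SD, n = 3 and 4), and 1 lower, Eef1g, a subunit of the exchange factor for Eef1a (198 ± 26.8 and 421 ± 193 CPM). Without unbound 2 the counts were 6 and 1. Eef1a1, which brings tRNAs to the ribosome, had 1230, 1110 and 1310 CPM in IP, against 765, 1490, 862 and 977 CPM in unbound, and Eef2, the translocase, had 836, 805 and 742 CPM in IP, against 1070, 930, 993 and 846 CPM in unbound. Neither was called. Of 22 ribosome assembly factors, 0 were higher and 2 lower with all libraries, and 0 and 3 without unbound 2 (at an unadjusted p under 0.05, 0 and 2, and 2 and 4). The lower ones with all libraries were Nop56, of the box C/D snoRNP, at 29.3 ± 3.64 CPM in IP and 66.8 ± 12.9 in unbound, and Wdr12, of the PeBoW complex, at 19.1 ± 1.12 CPM in IP and 40.8 ± 3.72 CPM in unbound.

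Of 18 genes of mTOR and S6 kinase control, 7 were called higher and 1 lower with all libraries, and 7 and 2 without unbound 2. The list holds 2 eIF4E-binding proteins, which mTOR switches off, and both were higher. Eif4ebp2 had 364, 404 and 419 CPM in IP, against 91.0, 48.9, 89.6 and 75.4 CPM in unbound (2.38 ± 0.26, edgeR adjusted p = 6.02e-05), and Eif4ebp1 18.2, 13.1 and 14.4 CPM in IP, against 0.251, 1.03, 1.20 and 0.635 CPM in unbound (4.30 ± 0.50, adjusted p = 9.32e-05). The S6 kinases Rps6kb2, Rps6ka1 and Rps6ka3, Akt1 and Eif4g1 were the other 5, and Tsc1, an inhibitor of mTOR, was the lower one. Larp1, which binds TOP mRNAs, had 155, 172 and 179 CPM in IP, against 194, 114, 199 and 205 CPM in unbound, and was not called.

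Mitochondrial ribosomal proteins are the counterpart family of the other ribosome. Of 75 tested, 0 were called higher and 5 lower with all libraries, and 5 and 3 without unbound 2, with medians of -0.23 and 0.07. At an unadjusted p under 0.05, 0 were higher and 7 lower with all libraries (all genes, 4203 and 4322 of 17654). Of 71 nuclear oxidative phosphorylation genes, 0 were higher and 14 lower (all genes, 20.5% and 18.9%), and 1 and 15 without unbound 2 (all genes, 23.3% and 20.9%), so that the lower calls were near the share of all genes, with medians of -0.65 and -0.16 (unadjusted, 0 and 23). Both families share the short transcripts and the excess in unbound 2 with the cytosolic ribosomal proteins. Without unbound 2 their medians lay below the 0.69 of the cytosolic family, a difference that was not tested.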

How the data were processed

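The authors deposited whole-number read counts per gene symbol for 7 libraries, without normalization. Per the submitters' processing notes, the tools were STAR 2.0.0e, an aligner, and HTSeq, a read counter, on the build mm10. The sources used here give no annotation, strand setting or read filter. Reads at several sites, which include copies and pseudogenes of ribosomal protein genes, were left out of gene counts (33.0% to 39.6% of reads in IP, 17.6% to 34.6% in unbound). Reads of overlapping genes were left out too (1.43% to 1.63% and 7.26% to 11.5%), so levels here may be too low. The group means differed, at 36.5% and 24.5% for several sites and 1.55% and 9.94% for overlapping genes. The part of these losses in the fold changes was not tested. The 6 rows that name no gene were left out.

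The counts were fitted with edgeR 4.0.16 under R 4.3.3 (filterByExpr, TMM, robust quasi-likelihood test, 2-sided, group as the only term, Benjamini-Hochberg over 17654 genes). Each log2 fold change has its standard error, and log2 CPM used a prior count of 2. The alternatives used DESeq2 1.42.0 and limma 3.58.1 (voom), other scalings and filters, the replicate number, the index sequence, and left-out libraries. Lengths and coordinates came from GENCODE M21, in which 83.5% of tested genes had a length. No libraries of a group agreed within sampling noise (chi-square per degree of freedom over the family, 67.8 to 1980). The level that 3 counts represent covers counting error only.

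The genes and lists were chosen with earlier results of these data known. Named were Rpl10a, Rpsa, the stalk genes, the 4 most abundant genes of each subunit, the 4 highest and 4 lowest fold changes, paralogues, and the most and least variable gene among unbound libraries. Other genes with values were chosen after their values were seen, as were the groups by place in the ribosome. Some genes are not reported here by name, though they are in the counts.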

Additional observations from a re-analysis of the deposited data

Results flagged for a closer look

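Among the family's share of counts and the genes named by rule, 10 values of the unbound group stood so far from the other 3 libraries that the gap exceeded Dixon's 95% critical value, and all 10 were high values of unbound 2. They are the share of counts on ribosomal protein genes (2.33%) and the CPM of Rpsa (382), Rplp2 (532), Rpl9 (997), Rpl41 (789), Rps3 (705), Rpl22 (195), Rps14 (942), Rpl3 (782) and Rpl36a (155). Chance alone passes this limit in about 1 in 20 groups. Over the whole family 37 of 79 genes passed it (46.8%), all with unbound 2 high. Of all 17654 tested genes 1854 passed it (10.5%), 893 of them with unbound 2 high.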

How the results depend on the processing

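The result that 1 ribosomal protein gene was higher in IP rests on unbound 2. Leaving out 1 library at a time gave 1 to 42 genes higher (all genes, 15.2% to 23.3%) and 0 lower (all genes, 9.51% to 20.9%). It gave a median log2 fold change of -0.10 to 0.69 and a median SD among unbound libraries of 0.27 to 0.97. The shares of counts were 1.30% to 1.53% in IP and 0.953% to 1.43% in unbound. The value without unbound 2 was an end of the ranges of genes higher, the median, the SD and the unbound share. The number higher was 4 with library size only (all genes, 21.9%), 2 with no low-count filter (15.4%), 3 with DESeq2 (22.3%), 4 with limma voom (22.7%), 0 within index ACAGTG (12.4%) and 28 within GTGAAA (21.4%; its lone IP library is assumed to vary like the unbound ones). It was 38 of 78 without unbound 1 and 2 (23.4%), 13 of 78 with a length offset (25.4%), which is below the share of all genes, and 20 of 77 without unbound 2 and with the offset (25.5%), which is near it. The number lower was 1 (Rps15a, against 20.7% to 23.4% of all genes) with a filter of 5 CPM in 3 libraries, with DESeq2, with the index as covariate, and without unbound 2 with the length offset. Leaving out each library in turn was planned, but the fit without unbound 2 was singled out after its values were seen. Leaving out both unbound 1 and 2, and both settings with a length offset, were chosen after seeing the data. The IP share was 1.67% without the 10 most abundant genes and 0.656% over all reads in the file. Rpl10l, Rpl26 and Rpl3l had too few counts to be compared, and why Rpl26 had so few was not tested. The direction of genes near 0 turned under several settings, and the cause was not tested.

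The log2 fold change of Rplp0 was 0.13 with library size only, 0.13 with voom, 0.41 within GTGAAA, 0.69 without unbound 1 and 2, 0.115 with the length offset and 0.35 without unbound 2 and with it. That of Rps27 was 0.023 with library size only, 0.15 with voom, 0.97 within GTGAAA and 1.04 without unbound 1 and 2. Rpl39l, at under 1 CPM, gave -0.43 with voom, -0.78 with the index covariate, -0.093 within ACAGTG and -0.056 with the length offset. Rpl36a gave -0.011 with the 5 CPM filter, -0.001 with the index covariate and -0.22 within ACAGTG. Within ACAGTG, Rplp2 gave -0.33, Rpl41 -0.37, Rps15 -0.34 and Rpl36al -0.027. Within GTGAAA, Rplp1 gave 0.38, Rps3 0.18 and Rps14 0.053. Without unbound 1 and 2, Rplp1 gave 0.38, Rpl9 0.24, Rps3 0.55 and Rps14 0.81, and without unbound 2 with the length offset, Rps3 gave 0.35 and Rps14 0.385. Leaving out 1 library at a time, the ranges of genes that changed direction were -0.23 to 0.51 for Rplp0, -0.12 to 1.23 for Rplp2, -0.83 to 0.25 for Rpl9, -0.014 to 1.08 for Rpl41, -0.36 to 0.35 for Rps27, -0.21 to 0.81 for Rps15, -0.52 to 0.44 for Rps3, -1.16 to 0.82 for Rps14, -2.73 to 0.73 for Rpl39l, -0.11 to 0.55 for Rpl36a and -0.064 to 0.74 for Rpl36al.

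Deviations of same-numbered IP and unbound libraries correlated at r = -0.03, 0.04 and 0.16 over genes, and those of differently numbered ones at -0.19 to 0.20. Whether the shared replicate numbers pair the libraries cannot be told from these values. With the replicate number as a block, 2 of 79 ribosomal protein genes were higher (all genes, 18.1%) and 0 lower (all genes, 14.5%). The 2 were Rps27l, and Rpl10a at 1.36 (edgeR adjusted p = 0.0447). With this block the median was 0.17, and Rplp0 gave 0.019 and Rpl39l -0.79.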
